A study of Homo sapiens with 8 samples.

Results

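The mRNAs of 6 chromatin regulators, TRIM28, CHD4, KDM1A, KMT2D, SPEN and SMARCA4, were examined for contacts with G3BP1, a protein that binds mRNA and nucleates stress granules. The sites are peaks from seCLIP, an assay in which RNA is crosslinked to protein by ultraviolet light, recovered with an antibody to that protein (IP) and sequenced beside an input library made without the antibody. The cells were HEK293T, an established human embryonic kidney line, either untreated (Ctrl) or exposed to PDS at 20 µM during the 12 h that preceded crosslinking. PDS is not expanded in the labels; in studies of guanine quadruplexes the letters commonly mean pyridostatin, a ligand that stabilises these structures. The 8 libraries make up 4 groups of 2 replicates: Ctrl IP, Ctrl input, PDS IP and PDS input. The values analysed are 1 peak list per condition that already joins both replicates, so a peak has 1 value, without an SD, and the conditions carry no replicate test.

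Members were all peaks on the gene's strand inside 6 windows of the hg19 genome, 1 per gene, and the genes had been chosen by their peaks in these same lists. Their numbers, positions and enrichments are therefore given as a description. Inside the windows lay 38 of 1421 peaks of the Ctrl list (2.67%) and 66 of 2925 of the PDS list (2.26%), 104 of 4346 in all. TRIM28 (Entrez gene 10155) was taken as chromosome 19 from 59055800 to 59062100, plus strand, and CHD4 (1108) as chromosome 12 from 6679200 to 6716600, minus strand. KDM1A (23028) was chromosome 1 from 23345900 to 23410200, plus strand, and SPEN (23013) chromosome 1 from 16174300 to 16267000, plus strand. KMT2D (8085) was chromosome 12 from 49412700 to 49449200, minus strand, and SMARCA4 (6597) chromosome 19 from 11071500 to 11173000, plus strand. No peak was cut by a window edge. The peak nearest to an edge on the inside lay 51 nt from it, in TRIM28, and the nearest same-strand peak on the outside lay 72471 nt away, beside KMT2D. On the opposite strand the windows held 0 peaks in either list. An hg19 annotation and genome were not used here, so exons, introns and UTRs are not named, and positions are distances from the upstream end of the window in the direction of transcription. In RefSeq (GRCh38.p14) other genes overlap the members: MIR6807 in TRIM28, MIR3115 and LUZP1 in KDM1A, SCARNA11, LOC124902867 and CHD4-AS1 in CHD4, DDN-AS1 in KMT2D, LOC124904815 and SPEN-AS1 in SPEN, and RN7SL192P in SMARCA4. Of these, LUZP1, SPEN-AS1, CHD4-AS1 and LOC124902867 lie on the opposite strand to the member, MIR6807 and MIR3115 on the same strand, and the strand of the others was not determined here. A peak in a window was not assigned to a transcript, so a site may belong to such a gene or to an intron and not to the mRNA of the regulator.

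All 6 genes encode proteins that set how tightly DNA is packed or how histones are marked. TRIM28, also called KAP1, is the corepressor that KRAB zinc finger proteins bring to transposable elements. CHD4 is the ATPase of the NuRD complex, which joins nucleosome remodelling to histone deacetylation. KDM1A, also called LSD1, removes methyl groups from histone tails as part of the CoREST corepressor, and SPEN is a large RNA-binding corepressor that recruits histone deacetylases. KMT2D is a histone methyltransferase of enhancers, and SMARCA4, also called BRG1, is an ATPase of the SWI/SNF remodelling complexes. G3BP1 itself binds mRNAs in the cytoplasm and drives their condensation into granules when translation stalls.

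CHD4 and TRIM28 carried most of the sites. CHD4 had 15 Ctrl and 30 PDS peaks, TRIM28 had 12 and 20, and SMARCA4 had 5 and 11. KDM1A had 1 and 3 peaks and SPEN 1 and 2, whereas KMT2D had 4 Ctrl peaks and 0 PDS peaks. The excess of PDS peaks depended on weakly enriched peaks in SMARCA4 and SPEN, and in part in KDM1A. In SMARCA4 PDS minus Ctrl went from 6 peaks to −1 with a log2 fold of at least 4 in both lists, and in SPEN from 1 to 0. With the PDS list alone shortened to its 1421 most enriched peaks, it was −4 in SMARCA4 and −1 in SPEN. The Ctrl list kept its weaker peaks in that setting, among them the SPEN peak with a log2 fold of 3.59. Differences in that setting therefore do not compare the lists at a like cutoff. KDM1A went from 2 to 1 with a log2 fold of at least 4 and to 0 in the shortened list. KMT2D went from −4 to 0 with a log2 fold of at least 4. Its −4 in the shortened list was fixed in advance, because it had 0 PDS peaks and the Ctrl list was unchanged. Per 10 kb of window, TRIM28 was the most densely covered member, with 19.0 Ctrl and 31.7 PDS peaks. CHD4 followed with 4.01 and 8.02 peaks per 10 kb, KMT2D with 1.10 and 0, SMARCA4 with 0.493 and 1.08, KDM1A with 0.156 and 0.467, and SPEN with 0.108 and 0.216. Windows span introns as well as exons, so these densities are not densities along the mRNA.

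Together the windows held 1.74 times as many PDS as Ctrl peaks (exact 95% interval 1.15 to 2.66, for counting error only), beside 2.06 for the whole lists. Merging peaks of a list within 50 nt left 29 Ctrl and 40 PDS regions, a ratio of 1.38 beside 1.73 for the whole lists. With a log2 fold of at least 4 required, the order turned: the windows held 10 Ctrl and 38 PDS peaks, a ratio of 3.80, beside 2.58 for the whole lists (313 and 808). This high ratio came mainly from CHD4, with 3 of these Ctrl and 26 of these PDS peaks. TRIM28 held 6 and 11, KDM1A 0 and 1, and SMARCA4 1 and 0. In bound length the ratio was 1.22 (2545 against 3114 nt), beside 1.74 for the whole lists. The excess of PDS was thus smaller in bound length than in peak number, and member peaks had a median width of 68 nt in Ctrl and 47 nt in PDS. Of the 66 PDS peaks 38 touched a neighbouring peak without a gap, where 40.5% of the PDS list did. Of the 38 Ctrl peaks 7 did so, where the list had 20.3%.

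**Figure D1:**
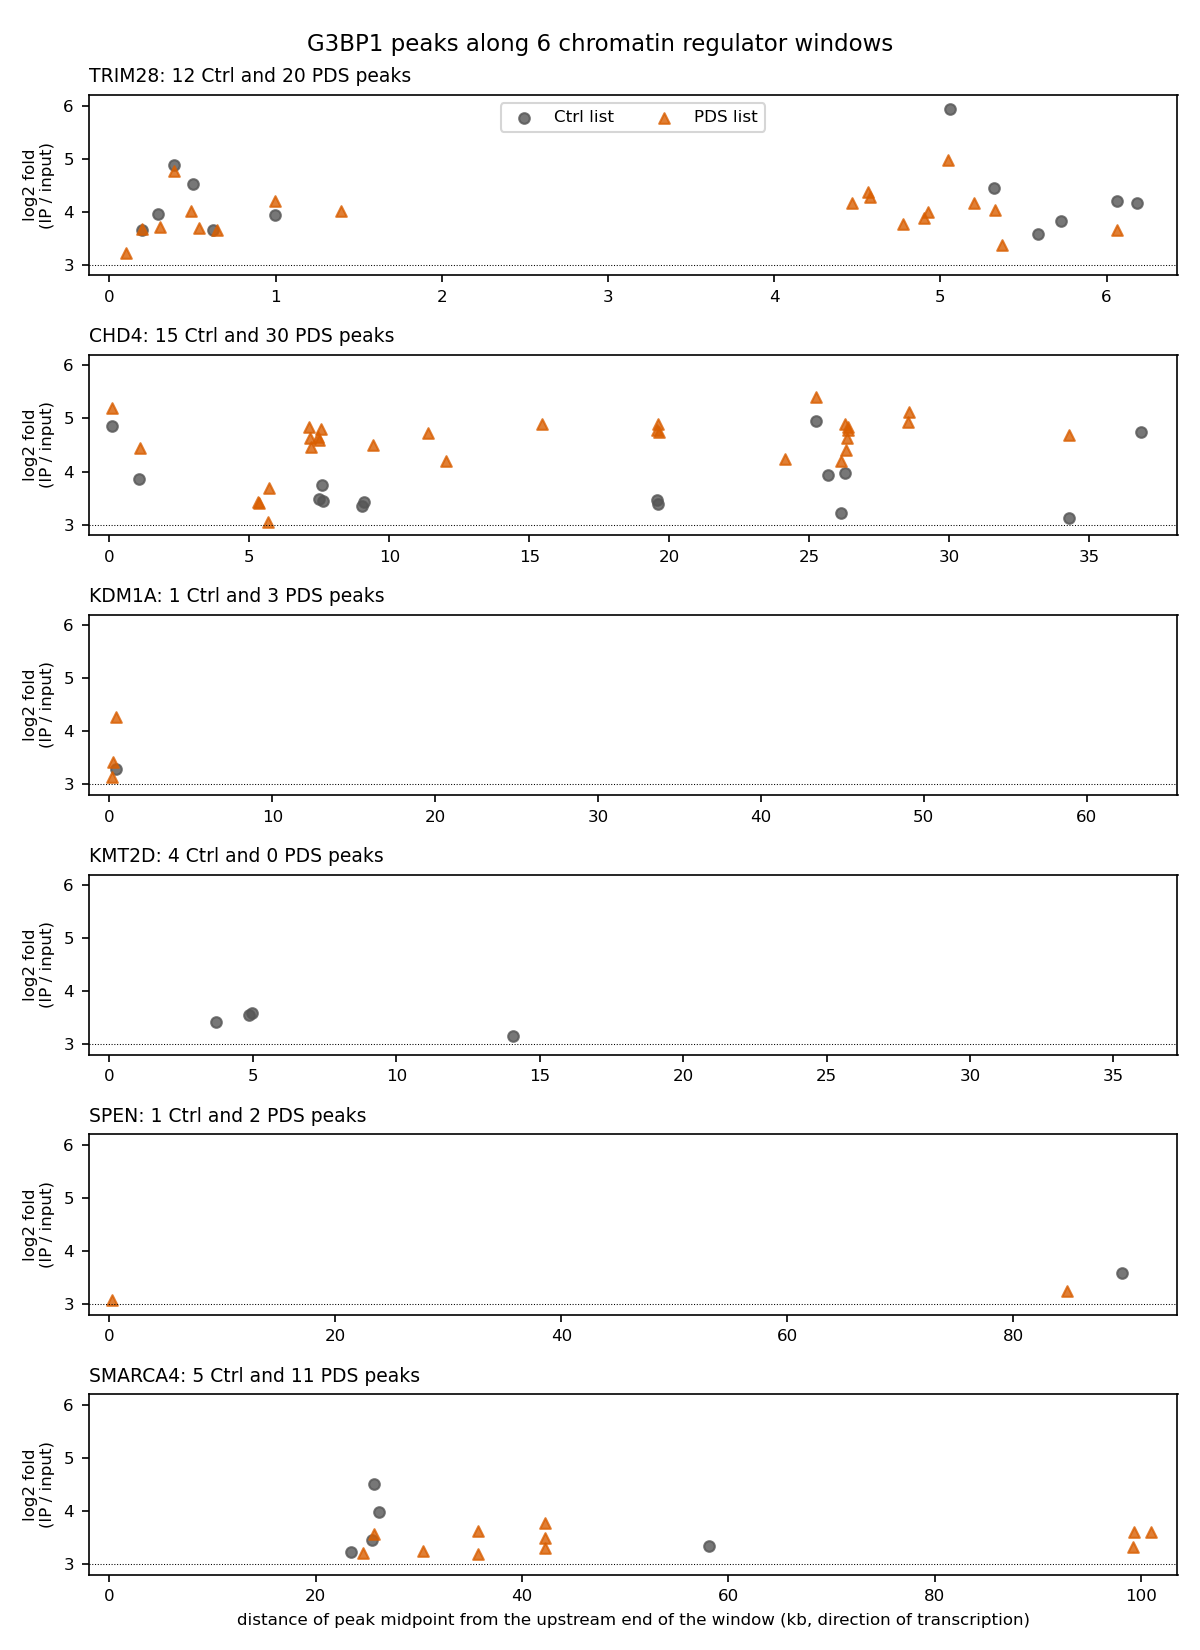
Each panel is 1 gene window, with the distance of a peak's midpoint from the upstream end of the window in kb on the x axis and the deposited log2 fold of IP over input on the y axis; grey circles are Ctrl peaks, orange triangles PDS peaks, and the dotted line marks a log2 fold of 3. TRIM28 peaks sit at both ends of the window, CHD4 peaks are spread over its length with PDS peaks mostly above 4, KDM1A peaks sit at the upstream end, and KMT2D has Ctrl peaks alone.

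Enrichment is given as the authors' log2 fold of IP over input, on which scale 3 means an 8-fold enrichment, which is not a ratio of RNA amounts. Every deposited peak in both lists lies above 3. Over the 6 windows the median log2 fold was 3.65 in Ctrl (quartiles 3.43 and 4.11) and 4.17 in PDS (3.60 and 4.68), beside 3.52 and 3.59 for the whole lists. A log2 fold of at least 4 was reached by 10 of 38 Ctrl peaks, where 22.0% of the list reached it, and by 38 of 66 PDS peaks, where 27.6% did. CHD4 supplied 26 of these 38 PDS peaks and TRIM28 11. KDM1A supplied the remaining 1, while SMARCA4 and SPEN supplied 0 of their 11 and 2 PDS peaks. The highest −log10 p among member peaks was 66.5, in the CHD4 window, and none of the 104 peaks carried the list's top value of 400.

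In TRIM28, the sites formed 2 blocks separated by 3041 nt without a peak in either list, from 1420 to 4462 nt into the window. The upstream block held 6 Ctrl and 9 PDS peaks. Its core was a nearly continuous bound stretch, 519 nt long in Ctrl (59055944 to 59056462, 5 peaks) and 511 nt in PDS (59055851 to 59056361, 6 peaks). Enrichment was highest near the middle of the stretch in both lists, with a log2 fold of 4.88 in Ctrl at 59056142 to 59056231 and of 4.77 in PDS at 59056157 to 59056217. All 6 Ctrl peaks of this block overlapped a PDS peak, and so did 8 of the 9 PDS peaks a Ctrl peak. The exception was a PDS peak at 59057170 to 59057220 with a log2 fold of 4.01.

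The downstream block of TRIM28 held 6 Ctrl and 11 PDS peaks and was less alike between the lists. It contained the most enriched member peak of all, a 147-nt Ctrl peak at 59060788 to 59060934 with a log2 fold of 5.94, equal to 61.4-fold, and a −log10 p of 56.9. This peak ranked 6 of 1421 Ctrl peaks by log2 fold. In PDS a 53-nt peak lay inside it at 59060817 to 59060869, with a log2 fold of 4.98, equal to 31.5-fold, and a −log10 p of 31.0. Upstream of that position PDS had 6 peaks between 59060262 and 59060745 (log2 fold 3.76 to 4.37), a span where Ctrl had none. Toward the downstream end of the window, Ctrl had 3 peaks without a PDS counterpart, at 59061370 to 59061401 (3.58), 59061514 to 59061533 (3.83) and 59061949 to 59062015 (4.16). Sites in this block thus differed in place as well as in height, with 3 of 6 Ctrl and 3 of 11 PDS peaks overlapping.

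In CHD4, sites ran along nearly the whole window, from 52 to 36884 nt. Peaks of both lists within 50 nt of each other formed 20 bound stretches, of which 8 held both lists, 9 PDS alone and 3 Ctrl alone. The most enriched stretch was the same in both lists. It lay 25185 nt into the window, with a Ctrl peak at 6691342 to 6691413 (log2 fold 4.96, 31.1-fold) and a PDS peak at 6691340 to 6691415 (log2 fold 5.40, 42.3-fold), so that the edges differed by 2 nt on each side. The PDS peak ranked 29 of 2925 by log2 fold and the Ctrl peak 40 of 1421.

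At the upstream end of CHD4 a site was likewise nearly identical in place, at 6716488 to 6716547 in Ctrl (log2 fold 4.85) and 6716480 to 6716548 in PDS (5.19). A second shared site lay about 1 kb further in, at 6715485 to 6715614 in Ctrl (3.85) and 6715477 to 6715564 in PDS (4.44). Between 7088 and 7660 nt, Ctrl had 3 peaks with log2 folds of 3.44, 3.49 and 3.75, and PDS had 6 with log2 folds of 4.45 to 4.84. Every PDS value in that span lay above every Ctrl value. A 130-nt stretch at 6690210 to 6690339 was covered by 5 touching PDS peaks (log2 fold 4.40 to 4.89), where Ctrl had 1 peak of 31 nt (3.97) with the same upstream edge, 6690339.

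PDS peaks of CHD4 outside Ctrl peaks were nearly as enriched as the overlapping ones. The 19 such peaks had a median log2 fold of 4.63 and the 11 overlapping ones 4.78, while the medians over the whole PDS list were 3.47 and 3.97. In TRIM28 the 9 PDS peaks outside Ctrl peaks had the higher median, 4.01 beside 3.70 for its 11 overlapping ones. Examples in CHD4 are a pair of touching peaks at 6688045 to 6688083 (log2 fold 5.13 and 4.93) and single peaks at 6701125 to 6701175 (4.90) and 6705176 to 6705238 (4.73). The distance of the 19 peaks to the nearest Ctrl peak of CHD4 had a median of 1062 nt (8 to 4066 nt), and 5 of the 19 lay within 100 nt. Exceptions to the high enrichment were 4 PDS peaks between 5280 and 5709 nt, with log2 folds of 3.05 to 3.70, the only CHD4 peaks of the PDS list below 4. In the other direction, the downstream-most Ctrl peak, at 6679716 to 6679825 (log2 fold 4.74, −log10 p 37.5), had no PDS counterpart. It ranked 71 of 1421 Ctrl peaks, and the downstream-most PDS peak lay at 6682294 to 6682343.

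**Figure D2:**
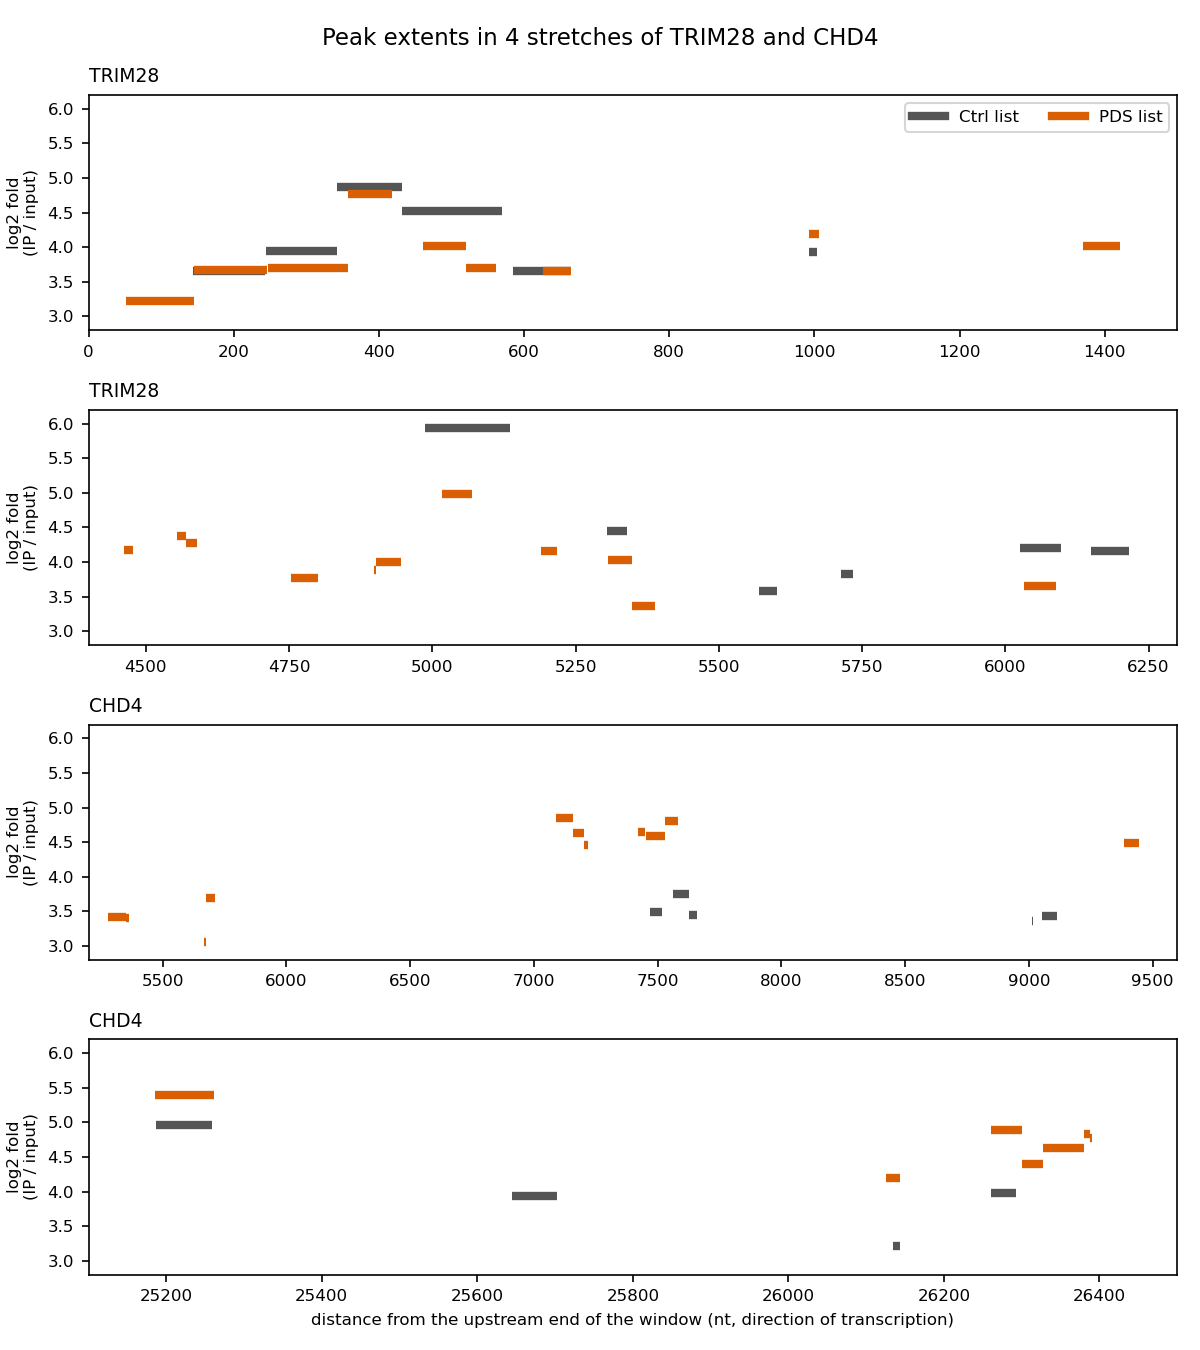
Bars show the extent of each peak to scale, in nt from the upstream end of the window (x axis), at the height of its log2 fold of IP over input (y axis), for the 2 blocks of TRIM28 and for 2 stretches of CHD4; grey is Ctrl and orange is PDS. In TRIM28 the grey bar at 5.94 lies above the orange bar at 4.98, and in CHD4 the orange bars lie above the grey bars they overlap.

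KDM1A had peaks at its upstream end alone, within 472 nt of the start of a window of 64301 nt, which does not show that the rest was unbound. The single Ctrl peak, at 23346268 to 23346372, had a log2 fold of 3.30 and a −log10 p of 8.28. The PDS peak inside it, at 23346270 to 23346353, had a log2 fold of 4.27 and a −log10 p of 17.8. PDS added peaks at 23346017 to 23346083 (3.13) and 23346085 to 23346187 (3.42), separated by 1 nt, so that the bound length was 105 nt in Ctrl and 254 nt in PDS.

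SPEN had few and weak sites, none in common. The Ctrl peak lay at 16263914 to 16263992 (log2 fold 3.59, −log10 p 9.95). In PDS a peak at 16174503 to 16174569, 203 nt from the upstream end of the window, had a log2 fold of 3.07 and a −log10 p of 11.9. The other, at 16259013 to 16259123, had a log2 fold of 3.25 and a −log10 p of 34.6. It lay 4790 nt upstream of the Ctrl peak.

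KMT2D was the member with Ctrl peaks alone. Its 4 peaks lay at 49445440 to 49445508 (log2 fold 3.43), 49444288 to 49444373 (3.55), 49444196 to 49444265 (3.58) and 49435078 to 49435153 (3.16), with −log10 p between 6.92 and 10.2. All lay within 14122 nt of the upstream end. Of all 557 Ctrl peaks whose log2 fold fell in the same range, from 3.16 to 3.58, 54.6% had no overlapping PDS peak, beside 48.5% of the whole Ctrl list. The 4 peaks merge into 3 regions of 1 window and come from the same libraries, so they are not 4 independent sites. The read depth behind the lists is unknown, so the absence of a peak is not an absence of binding.

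SMARCA4 had sites in both lists that coincided at 1 place. Ctrl had 4 of its 5 peaks between 23349 and 26177 nt, the highest at 11097055 to 11097159 (log2 fold 4.51, −log10 p 19.4), and the fifth at 11129636 to 11129677 (3.35). The PDS peak inside the highest one, at 11097071 to 11097122, had a log2 fold of 3.57 and a −log10 p of 11.1. Another PDS peak lay among the Ctrl peaks without overlapping them, at 11096018 to 11096075 (3.21). Further along the gene PDS had a peak at 11101826 to 11101876 (3.25) and touching peaks at 11107170 to 11107220 and at 11113705 to 11113797. Near the downstream end, PDS peaks lay at 11170721 to 11170863 and 11172460 to 11172546. These downstream-end peaks had log2 folds of 3.33, 3.60 and 3.60 with a −log10 p of up to 58.1. The nearest Ctrl peak to them was separated from them by 41043 nt. The log2 folds of all 11 PDS peaks lay between 3.18 and 3.76, close to the limit of 3.

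Whether the same sites were occupied was then counted over all members. At least 1 nt on the same strand was shared by 21 of 38 Ctrl peaks (55.3%, exact 95% interval 38.3 to 71.4%), where 51.5% of the Ctrl list was shared. It was shared by 24 of 66 PDS peaks (36.4%, 24.9 to 49.1%), where 30.6% of the PDS list was. Both member shares lay close to those of the lists, whose values fell inside the intervals. By gene, 9 of 12 Ctrl and 11 of 20 PDS peaks were shared in TRIM28, 10 of 15 and 11 of 30 in CHD4, 1 of 1 and 1 of 3 in KDM1A, and 1 of 5 and 1 of 11 in SMARCA4. In SPEN and KMT2D 0 peaks were shared. In nucleotides, common positions made up 63.6% of the Ctrl and 59.9% of the PDS bound length of TRIM28, and 54.6% and 37.1% of that of CHD4, beside 42.5% and 24.4% for the whole lists. SMARCA4 stood lower, at 14.6% and 9.72%.

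The height of overlapping sites differed between TRIM28 and CHD4. Overlapping Ctrl and PDS peaks were gathered into groups, and the highest log2 fold of each list was taken in a group. In CHD4 the PDS value was the higher one in 9 of 9 groups, by 0.34 to 1.57 with a median of 0.98. In TRIM28 it was higher in 2 of 7 groups, with differences of −0.96 to 0.27 and a median of −0.41. Over all 624 groups of the lists PDS was higher in 65.5%, with a median difference of 0.24 (quartiles −0.16 and 0.71). In groups of exactly 1 peak from each list, PDS was higher in 8 of 8 for CHD4 and in 2 of 5 for TRIM28, where 62.0% of all 410 such groups had the higher value in PDS. The groups of 1 gene share their window and libraries and are not replicates, and the difference between the genes was not tested.

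Single groups show the size of these differences. The largest in CHD4 was at the shared site furthest downstream, where a log2 fold of 3.12 in Ctrl (8.71-fold) stood against 4.69 in PDS (25.9-fold). Next was the site at 6696964 to 6697070, with 3.46 in Ctrl and 4.90 in PDS. In TRIM28 the largest was 5.94 in Ctrl against 4.98 in PDS at the most enriched Ctrl peak, followed by 4.21 against 3.65 at 59061826 to 59061896. Almost no difference was seen at 59056385 to 59056464 of TRIM28, with 3.65 against 3.65. A difference of at least 0.5 in favour of PDS was reached by 7 of 9 CHD4 and 0 of 7 TRIM28 groups, where 35.9% of all groups reached it. One of at least 0.5 in favour of Ctrl was reached by 3 TRIM28 and 0 CHD4 groups, where 11.1% did. Both lists hold only peaks above 3, so a group with a Ctrl log2 fold below 3.5 could not show such a fall. CHD4 had 4 groups of that kind and TRIM28 had 0, so these counts do not compare the genes on equal terms. The single group of KDM1A differed by 0.98 in favour of PDS and that of SMARCA4 by 0.95 in favour of Ctrl.

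**Figure D3:**
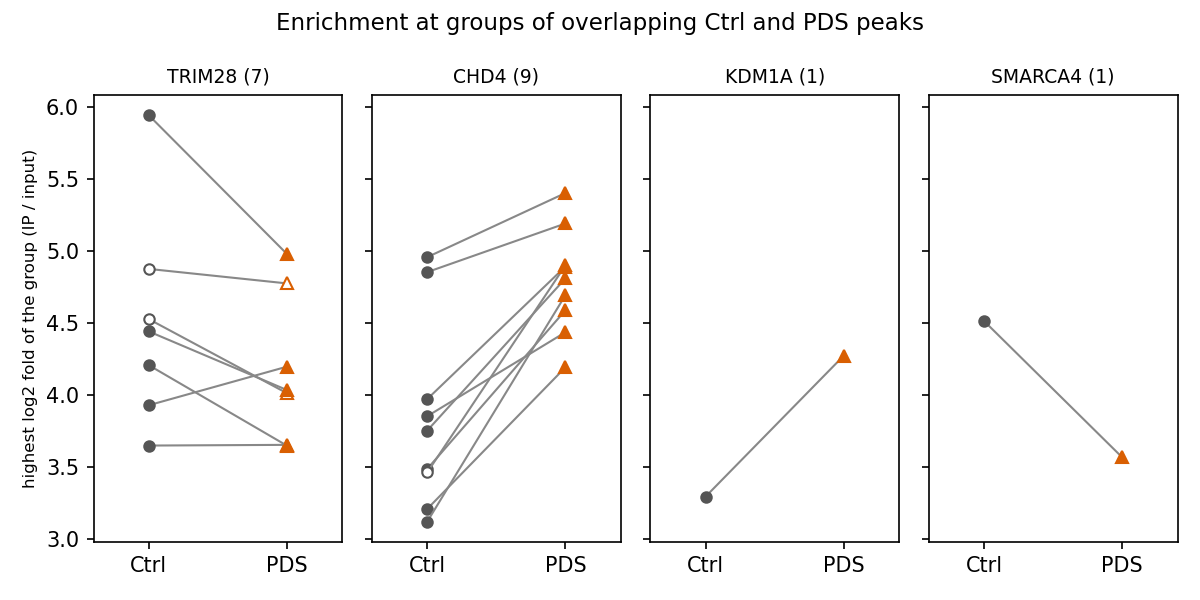
Lines join the highest log2 fold of IP over input in Ctrl (grey circles) and in PDS (orange triangles) for each group of overlapping peaks, with the number of groups in brackets; filled symbols mark groups of 1 Ctrl and 1 PDS peak. All 9 CHD4 lines slope up, by 0.34 to 1.57, while 5 of 7 TRIM28 lines slope down.

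The difference contains the Ctrl value, so it runs lower by construction where Ctrl is high. Over all groups the median difference was 0.41 where the Ctrl log2 fold was below 3.5 and −0.35 where it was 4.5 or more. TRIM28 had 5 of its 7 groups at a Ctrl log2 fold of 4 or more, and CHD4 had 2 of its 9. The values of these genes therefore start from different heights. At a Ctrl log2 fold from 3.5 to below 4, the median difference was 0.92 in 3 CHD4 and 0.14 in 2 TRIM28 groups. Over all groups of that range it was 0.30. At 4.5 or more it was 0.39 in 2 CHD4 and −0.51 in 3 TRIM28 groups, beside −0.35 over all. The other ranges held groups of only 1 of these genes. So few groups give a description, and the contrast at like Ctrl height was not tested.

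Among stretches of the genome with several overlapping sites, the genes stood toward opposite ends. Chaining peaks of both lists over gaps of up to 10000 nt gave 25 loci with at least 5 groups, a comparison made after the values had been seen. The median difference ranged from −0.41 to 1.65 over these loci (median 0.48, quartiles −0.07 and 0.81). TRIM28 had the lowest median of the 25, and CHD4 the fifth highest. The loci were not matched for Ctrl height, on which the difference depends by construction. The median Ctrl log2 fold of the groups was 4.44 in TRIM28 and 3.75 in CHD4, beside 3.62 over all groups. With overlap defined as at least 50% of each peak, TRIM28 had a median of −0.17 and was the fifth lowest of 26, and CHD4 had 1.01 and was the third highest. In 6 of the 25 loci, CHD4 among them, PDS was the higher in every group.

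**Figure D4:**
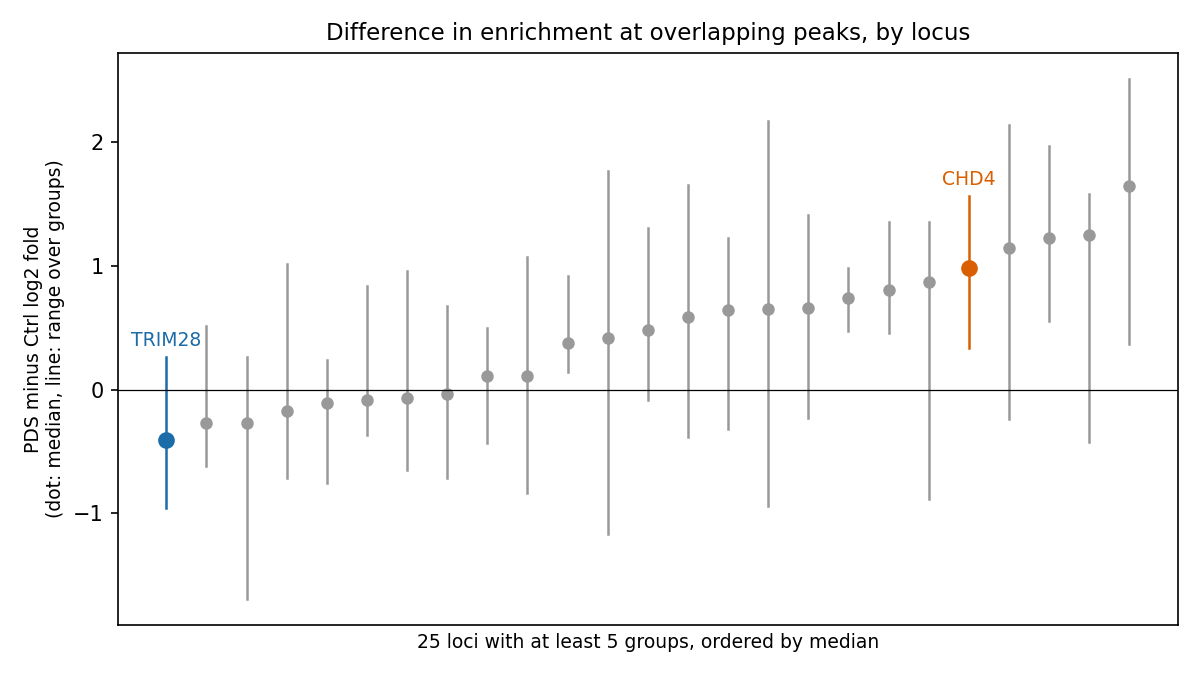
For 25 loci with at least 5 groups of overlapping peaks, ordered by their median along the x axis, the dot is the median and the line the range over groups of the PDS minus Ctrl log2 fold (y axis); TRIM28 is blue, CHD4 orange and the other loci grey. TRIM28 lies at the lower end with a median of −0.41 and CHD4 near the upper end with 0.98.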

How the data were processed

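G3BP1 seCLIP libraries from HEK293T cells were analysed as 1 peak list per condition, without a header, deposited by the authors with both replicates joined. Whether the replicates were separate cultures is not stated in the labels. Per the submitters' processing notes, reads went through cutadapt, UMI-tools and STAR with hg19 as the build. How peaks were called and replicates joined is not given in the sources used here. From the values and the usual eCLIP layout, the fourth column was read as the deposited −log10 p and the fifth as the deposited log2 fold of IP over input. Starts were taken as counted from 0 and are printed counted from 1. Per-library read totals were not analysed here, so depth is unknown, and intervals (exact Clopper-Pearson, 95%) cover counting error only.

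Peaks were joined to windows, merged and overlapped with python 3.11.15, pandas 2.3.3, numpy 2.4.6, scipy 1.17.1 and networkx 3.6.1. The overlap step was tested on simulated data: 400 of 400 planted copies of Ctrl peaks were found and 0 of 1421 peaks differed from a direct search. Members and lists were chosen with earlier results of these data known. Within each window, the peak of highest log2 fold, the widest merged region and the groups of overlapping peaks are named, and other peaks are given by range or as examples picked after their values were seen. Gene identifiers were taken from RefSeq by symbol, and 6 of 6 matched. The planned counts in other chromatin regulator genes and the search for G-rich sequence patterns need hg19 references and were not run.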

Additional observations from a re-analysis of the deposited data

How the results depend on the processing

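Of 31 alternative values for the counts, ratio, shares and medians over the members, 24 stayed within the limits set (1.5 times for counts, the main exact 95% interval for the ratio and shares, and the order-statistic 95% interval for medians) and 7 moved. The stricter threshold (log2 fold of at least 4 and −log10 p of at least 5) left 10 Ctrl and 38 PDS peaks, a ratio of 3.80 beside 2.58 for the whole lists, and merging left 40 PDS regions. Of the peaks left by that threshold, 3 Ctrl and 26 PDS peaks lay in CHD4. The shared percentage of PDS peaks was 22.7 with reciprocal overlap of 50%, 51.5 within 100 nt and 15.8 with the stricter threshold. Among 54 values for single genes, 25 stayed, 26 moved and 3 turned. In both sets the values that stayed include Ctrl counts with only the PDS list shortened. These were fixed in advance, because the Ctrl list was unchanged. So were the KMT2D PDS counts of 0 in every setting and its difference of −4 with the PDS list shortened. PDS minus Ctrl peaks became −1 in SMARCA4 with the stricter threshold. The difference was −4 in SMARCA4 and −1 in SPEN with the PDS list cut to the Ctrl length by log2 fold, which keeps the more enriched peaks. The Ctrl list kept its weaker peaks there, so that setting compares unlike cutoffs. With all peaks kept, leaving out 1 window in turn gave ratios from 1.57 (without CHD4) to 1.94 (without KMT2D). Windows were not left out in this way at the stricter threshold. The median differences in overlap groups kept their sign for CHD4 (0.95 to 1.01) and TRIM28 (−0.41 to −0.17) in the 3 alternatives tried for each, which were chosen after seeing the data. The interval used for TRIM28, −0.96 to 0.27, is the full range of its 7 groups, so it set almost no limit on these medians. That for CHD4 was 0.44 to 1.44. Groups of 1 gene are not replicates, so neither interval tests a difference from 0. Apart from stricter limits leaving fewer peaks, the causes were not tested. No paired analysis was possible because each list gives 1 value per peak for both replicates together, which also means that leaving out a replicate was not possible.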
